A study of Rattus norvegicus with 24 samples.

Results

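Glucocorticoid-responsive genes were followed in rat blood through 8 members: Nr3c1, which encodes the glucocorticoid receptor, and its target genes Fkbp5, Tsc22d3, Dusp1, Sgk1, Zbtb16, Klf9 and Cebpd. The members were found by gene name among the probes that are not controls. They were represented by 9 of 30367 probes, and by 8 of the 25885 gene names on the array. The match used gene names alone, but the members were chosen with earlier results of these data known. Each probe was read on 24 two-color arrays, 4 in each of 6 groups. All rats were male Sprague Dawley animals, 8 weeks old at the start, and ate a semi-synthetic diet for 6 weeks. C-G0 rats received the control diet and saline injections, and LPS-G0 rats the same diet and repeated injections of lipopolysaccharide (LPS) into the tail vein at 10 mg per kg, a bacterial cell wall component that was used to induce enteritis. C-G1 and LPS-G1 rats were fed oat beta-glucan of high molecular weight, without and with LPS. C-G2 and LPS-G2 rats were fed oat beta-glucan of low molecular weight, also without and with LPS. The C-G1 and C-G2 rats received saline injections, as the C-G0 rats did. Blood was drawn by cardiac puncture after fasting, under isoflurane anesthesia, and the hours between the last LPS injection and the blood sampling are not given in the sources used here. The study asked how LPS and the beta-glucans alter gene expression in peripheral blood.

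Glucocorticoids (corticosterone in rats) are steroid hormones released by the adrenal cortex during stress and inflammation. They bind the receptor encoded by Nr3c1, which is held in the cytoplasm by heat shock proteins and immunophilins, and the bound receptor moves to the nucleus, where it induces some genes and restrains inflammatory ones. In blood, glucocorticoids are known to shift the numbers of circulating leukocytes as well as the transcripts within them. In whole blood, fewer cells of a type and less RNA per cell cannot be told apart.

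Of the 8 members, 4 were measured in blood on every array, and the probes that carry the results are shown here by their first 30 of 60 bases, in the orientation of the array, in lower case because no part is singled out. The coordinates are those of the array annotation on the rn4 assembly.
Fkbp5 probe, chr20:6637600-6637659, minus strand: gagtggtgggtaagcagatgacattgaaat
Tsc22d3 probe, chrX:128336564-128336623, minus strand: atggagtcctgtggtagacaagaagagtaa
Klf9 probe, chr1:226445625-226445684, plus strand: ccgaatttacactaaacaagacagaccttc
Cebpd probe, given no position by the array annotation: gagcagacgccgcccgaattgctacagttt

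All values are log2 ratios of the Cy3 over the Cy5 signal, on which a difference of 1 is a 2-fold change. By the sample labels, Cy3 carried the RNA of the single rat and Cy5 a common reference pool of rat blood RNA. The study's methods name the opposite dyes, so that the ratio given here is inverted against the dyes of the methods. The study reports the granzyme gene Gzmb as up-regulated in LPS-challenged rats. In the ratios used here, 5 of 5 tested NK cell markers, Gzmb among them, were above 0 in LPS-G0 against C-G0. For this gene the direction is therefore the same as the published one. The labels were followed after a check of the values. Within groups, the SD of the Cy3 signals had a median of 0.353 and that of the Cy5 signals 0.195 over 7074 probes detected in both channels throughout, and in 96.7% of them the Cy3 value exceeded the Cy5 value, including all 4 measured members. For Fkbp5 the SD was 0.292 in Cy3 and 0.153 in Cy5, and for Cebpd 0.366 and 0.121. An array had 7786 to 15385 probes well above background in Cy3, and 14400 to 22449 in Cy5. The arrays lay on 3 slides of 8, each of which held all 6 groups. C-G0 replicate 1 and C-G1 replicate 2 stood apart from the rest: the median absolute deviation of their Cy3 signals from the median of the other arrays was 0.80 and 0.81 on the log2 scale, against at most 0.52 on the other 22 arrays. LPS-G0 replicates 3 and 4 carry a title that names LPS and another label that says control. They were grouped by title, and the members' differences from LPS-G0 are also given without them. Markers of 7 blood cell types were found as the tissue label implies, with 6 of 6 erythroid, 5 of 5 platelet, 6 of 8 T cell, 4 of 6 B cell, 5 of 6 NK cell, 5 of 8 neutrophil and 5 of 6 monocyte markers tested over the 24 arrays.

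Fkbp5, a co-chaperone that lowers the hormone affinity of the receptor, Tsc22d3, which encodes the anti-inflammatory leucine zipper protein GILZ, Klf9, a Krüppel-like transcription factor, and Cebpd, a transcription factor of the acute phase response and of myeloid cells, were well above background in Cy3 on 24 of 24 arrays. The other 4 members were at or near background in Cy3. Dusp1, a phosphatase that switches off MAP kinases, and Zbtb16, a zinc finger transcription factor, were well above background in Cy3 on 0 of 24 arrays, and Sgk1, a kinase that regulates ion transport, on 1. The receptor gene Nr3c1 had a pair of probes on rat chromosome 18. One, at chr18:32375401-32375460 on the minus strand, was well above background in Cy3 on 1 array, and the other, at chr18:32371607-32371666 on the same strand, on 4. In Cy5 the same probes were well above background on 16 and 24 arrays, Dusp1 on 14, Sgk1 on 15 and Zbtb16 on 4. These 5 probes entered no test, because none was well above background on all 4 arrays of a group.

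**Figure D1:**
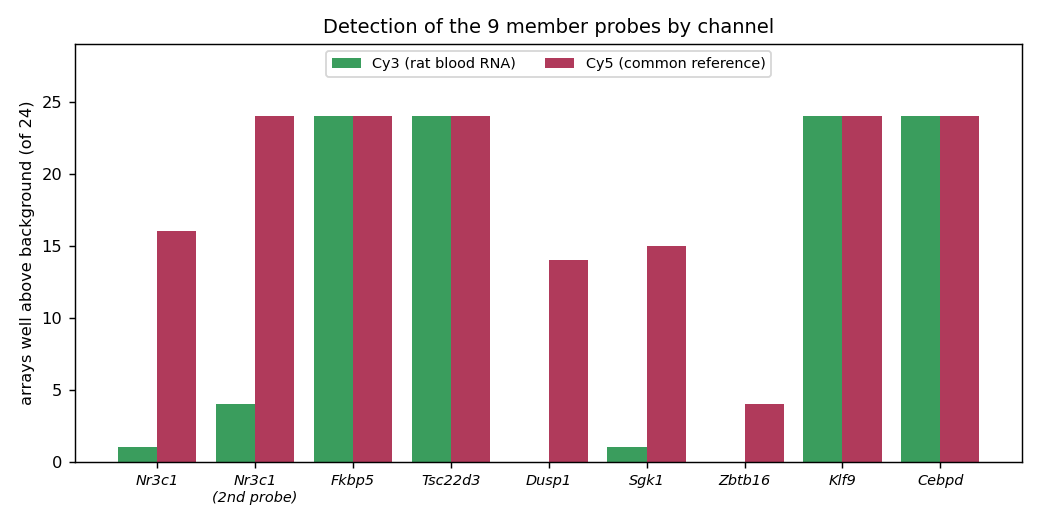
Number of the 24 arrays on which each of the 9 member probes was well above background, in Cy3 (rat blood RNA, green) and in Cy5 (common reference, red). Fkbp5, Tsc22d3, Klf9 and Cebpd reach 24 in both channels, and the other 5 probes reach at most 4 in Cy3.

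The dim probes gave no fold changes. In no group was any of them well above background on all 4 arrays, so that the group means are not measured levels. The second Nr3c1 probe was detected in Cy3 on 2 of 4 arrays in LPS-G1, with signals of 5.30 and 6.28 on the log2 scale, and on 0 of 4 in LPS-G0. In C-G1 its 1 detected array was replicate 2, at 6.92, which is one of the arrays that stood apart. The 1 detected Sgk1 array was C-G1 replicate 4, at 5.75.

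The values of Tsc22d3 on replicates 1 to 4 were -0.33, -0.089, 0.41 and 0.29 in C-G0 and -0.062, -0.092, -0.39 and -0.54 in LPS-G0. They were -0.19, 0.68, 0.31 and 0.028 in C-G1 and 0.10, 0.59, 0.039 and 0.22 in LPS-G1. In C-G2 they were -0.21, 0.51, -0.46 and 0.18, and in LPS-G2 -0.092, -0.088, 0.0019 and -0.093. All 4 LPS-G0 arrays were below 0 and all 4 LPS-G1 arrays above it, and the lowest pair of LPS-G0 arrays were those with conflicting labels. The LPS-G2 arrays lay within 0.095 of each other, while the C-G2 arrays spanned 0.97.

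Fkbp5 stood at -0.43, -0.017, 0.11 and -0.033 on the C-G0 arrays and at -0.55, -0.27, -0.033 and -0.40 on the LPS-G0 arrays. It stood at -0.12, 0.24, 0.026 and -0.26 in C-G1 and at -0.25, -0.022, 0.11 and -0.077 in LPS-G1. It stood at 0.065, -0.14, -0.10 and -0.052 in C-G2 and at -0.35, 0.23, 0.37 and -0.29 in LPS-G2. Every group overlapped every other. Fkbp5 was the steadiest of the 4 members, with a within-group SD of 0.23, at the 19.3rd percentile of all probes tested, whose median was 0.32.

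For Klf9 the log2 ratios were -0.45, 0.98, 0.37 and 0.77 in C-G0 and 0.0075, -0.020, 0.27 and 0.27 in LPS-G0. They were 0.19, 0.79, 0.48 and 0.33 in C-G1 and 0.52, 0.60, 0.062 and 0.31 in LPS-G1. In C-G2 they were -0.30, 0.33, 0.17 and 0.49, and in LPS-G2 0.23, 0.35, -0.43 and 0.26. Klf9 varied most between rats of one group (within-group SD 0.36), and the C-G0 group alone spanned the whole range of the 24 arrays, its lowest value coming from the array that stood apart.

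For Cebpd the log2 ratios were 0.0037, -0.18, 0.13 and 0.25 in C-G0 and -0.50, -0.23, -0.31 and 0.14 in LPS-G0. They were -0.11, -0.14, 0.28 and 0.68 in C-G1 and -0.52, -0.18, -0.13 and 0.058 in LPS-G1. In C-G2 they were 0.036, 0.79, -0.16 and 0.59, and in LPS-G2 0.40, 0.18, 0.056 and 0.15. In LPS-G0 and in LPS-G1, 3 of 4 arrays were below 0, whereas all 4 LPS-G2 arrays were above it. The within-group SD was 0.30 for Cebpd and also for Tsc22d3.

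**Figure D2:**
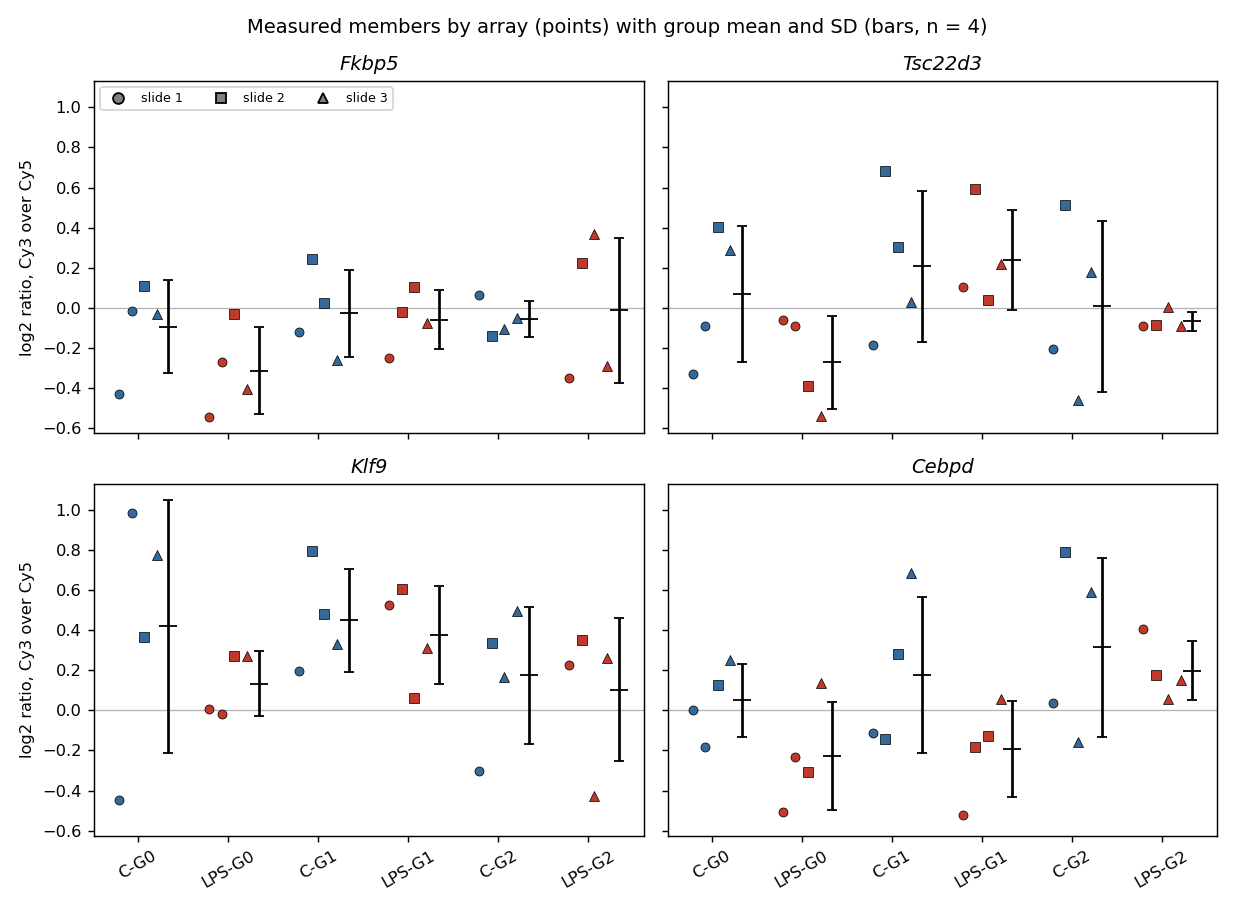
Log2 ratio of Cy3 over Cy5 for Fkbp5, Tsc22d3, Klf9 and Cebpd on each of the 24 arrays, by group (blue without LPS, red with LPS; the marker shape gives the slide), with the mean and SD of each group of 4. The LPS-G0 and LPS-G1 arrays of Tsc22d3 do not overlap, and the groups of Fkbp5 all do.

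Ordered by group mean, Tsc22d3 ran from LPS-G0 (-0.27 ± 0.23, SD, n = 4) to LPS-G1 (0.24 ± 0.25), and Fkbp5 from LPS-G0 (-0.31 ± 0.22) to LPS-G2 (-0.013 ± 0.36). Klf9 ran from LPS-G2 (0.10 ± 0.36) to C-G1 (0.45 ± 0.26), and Cebpd from LPS-G0 (-0.23 ± 0.27) to C-G2 (0.31 ± 0.45). LPS-G0 was thus the lowest group for 3 of the 4 members. Neighboring groups in these orders differed by less than the pooled SD within groups of that member.

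The first comparison asks what LPS did to these genes on the control diet. In LPS-G0 against C-G0 all 4 measured members had a mean difference below 0, from -0.34 for Tsc22d3 to -0.22 for Fkbp5, with -0.29 for Klf9 and -0.28 for Cebpd, where 46.5% of all 10313 probes tested were below 0 and their median was 0.028. None of the 4 passed limma's test at an adjusted p under 0.05 (0 of 4, against 0.0097% of all probes), and 0 of 4 passed at an unadjusted p under 0.05 (15.2% of all probes). The adjusted p was 0.376 for Tsc22d3, 0.444 for Cebpd, 0.601 for Fkbp5 and 0.633 for Klf9. The groups overlapped for all 4, where 5.03% of all probes did not overlap. The 95% confidence intervals ran from -0.83 to 0.26 over the 4 members, so that a change of 2-fold in either direction lay outside every one of them. Within single slides the difference was below 0 on 3 of 3 slides for Fkbp5, Klf9 and Cebpd and on 2 of 3 for Tsc22d3. The only LPS-G0 arrays on slides 2 and 3 were the pair with conflicting labels, so the differences there rest on them. For Tsc22d3 the difference was 0.13 on slide 1, -0.79 on slide 2 and -0.83 on slide 3. Leaving out both LPS-G0 arrays with conflicting labels gave -0.31 for Fkbp5, -0.15 for Tsc22d3, -0.43 for Klf9 and -0.42 for Cebpd, with 0 of 4 passing. Among the 7 lists of cell markers, the NK cell list differed most, with 5 of 5 tested genes above 0, all 5 at an unadjusted p under 0.05 and 0 after adjustment, and a median of 0.87. It lay between -1.68 and -0.018 on the C-G0 arrays, the lowest being the array that stood apart, and between -0.096 and 0.59 on the LPS-G0 arrays. The neutrophil list had 5 of 5 genes below 0, 3 of them at an unadjusted p under 0.05 and 0 after adjustment, and a median of -0.55. The medians of the other 5 lists lay between -0.09 and 0.07, and the part of any list in the members' values was not tested.

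The second comparison asks how the beta-glucan of high molecular weight altered blood expression in LPS-treated rats. In LPS-G1 against LPS-G0, Tsc22d3 had the largest difference of any member in any of the 10 comparisons, 0.51 (SE 0.18, 95% interval 0.13 to 0.89, a fold of 1.42). Its groups did not overlap, as was true of 21.9% of all probes in this comparison, and of 7.3% in the same direction. The exact permutation test gave 0.0286 for Tsc22d3, the smallest two-sided p that 4 against 4 arrays allow. The adjusted p by limma over all probes was 0.0816. Of the 4 members, 0 passed the adjusted threshold where 8.93% of probes did, 0.989% with a change of at least 2-fold. At the unadjusted threshold, 1 of 4 passed where 26.9% of probes did, and this was Tsc22d3. Its unadjusted p by limma was 0.0109. The adjusted p fell to 0.0287 with array weights and to 0.033 without the 2 arrays that stood apart. Neither of those arrays belongs to LPS-G1 or LPS-G0, and only C-G0 replicate 1 was in this fit. The difference therefore stayed at 0.51, and only the spread shared by the fitted groups changed. With both LPS-G0 arrays of conflicting labels left out, the difference was 0.32 with an adjusted p of 0.427, and 0 of all probes passed the adjusted threshold in place of 8.93%. The same omission gave 0.35 for Fkbp5, 0.38 for Klf9 and 0.18 for Cebpd. For Tsc22d3 the difference was 0.18 on slide 1, 0.70 on slide 2 and 0.76 on slide 3. The only LPS-G0 arrays on slides 2 and 3 were those with conflicting labels. With the slide as a block the difference of Tsc22d3 was 0.48 with an adjusted p of 0.147 by limma.

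Beside this difference, the list of erythroid markers lay between 0.066 and 0.14 on the LPS-G0 arrays and between -0.65 and 0.049 on the LPS-G1 arrays. Of its 6 tested genes, 4 were lower in LPS-G1, and 1 of these, Epb42, a protein of the red cell membrane skeleton, passed the test (-0.93, adjusted p = 0.0408 by limma). The medians of the other 6 lists lay between -0.12, for NK cells, and 0.38, for B cells, with 0 genes passing after adjustment. The part of these markers in the difference of Tsc22d3 was not tested. The other 3 members differed less between LPS-G1 and LPS-G0: Fkbp5 by 0.25 (adjusted p = 0.375), Klf9 by 0.24 (adjusted p = 0.546) and Cebpd by 0.033 (adjusted p = 0.909), all with overlapping groups.

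The third comparison concerns the beta-glucan of low molecular weight. In LPS-G2 against LPS-G0, Cebpd was 0.42 higher (SE 0.17, 95% interval 0.074 to 0.77, a fold of 1.34), with an unadjusted p of 0.0205 and an adjusted p of 0.597 by limma, and 0.0571 by the exact permutation test. It was 1 of 4 members at an unadjusted p under 0.05, where 8.23% of all probes were, and 0 of 4 passed the adjusted threshold, as did 0% of all probes. The LPS-G2 arrays lay between 0.056 and 0.40 and the LPS-G0 arrays between -0.50 and 0.14, so that the groups overlapped through the highest LPS-G0 array, and 10.5% of all probes did not overlap. Within single slides the difference was 0.77 on slide 1, 0.48 on slide 2 and -0.034 on slide 3. Slides 2 and 3 held no LPS-G0 arrays but those with conflicting labels. Without this pair of arrays the difference was 0.57 with an adjusted p of 0.790 by limma. The neutrophil marker list moved in the same direction, from between -0.65 and -0.14 on the LPS-G0 arrays to between -0.20 and 0.74 on the LPS-G2 arrays. All 5 tested neutrophil markers had a difference above 0, 4 of them at an unadjusted p under 0.05 and 0 after adjustment, with a median of 0.65. The NK cell list ran the other way, with 5 of 5 genes below 0, 0 of them at an unadjusted p under 0.05, and a median of -0.52. The part of these markers in the difference of Cebpd was not tested. Fkbp5 was 0.30 higher (adjusted p = 0.625), Tsc22d3 0.20 higher (adjusted p = 0.727), and Klf9 differed by -0.030 (adjusted p = 0.981). Without the arrays of conflicting labels these became 0.39 for Fkbp5, 0.0097 for Tsc22d3 and 0.11 for Klf9. This comparison and both before it share the LPS-G0 arrays, so that a low LPS-G0 value enters each of them.

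**Figure D3:**
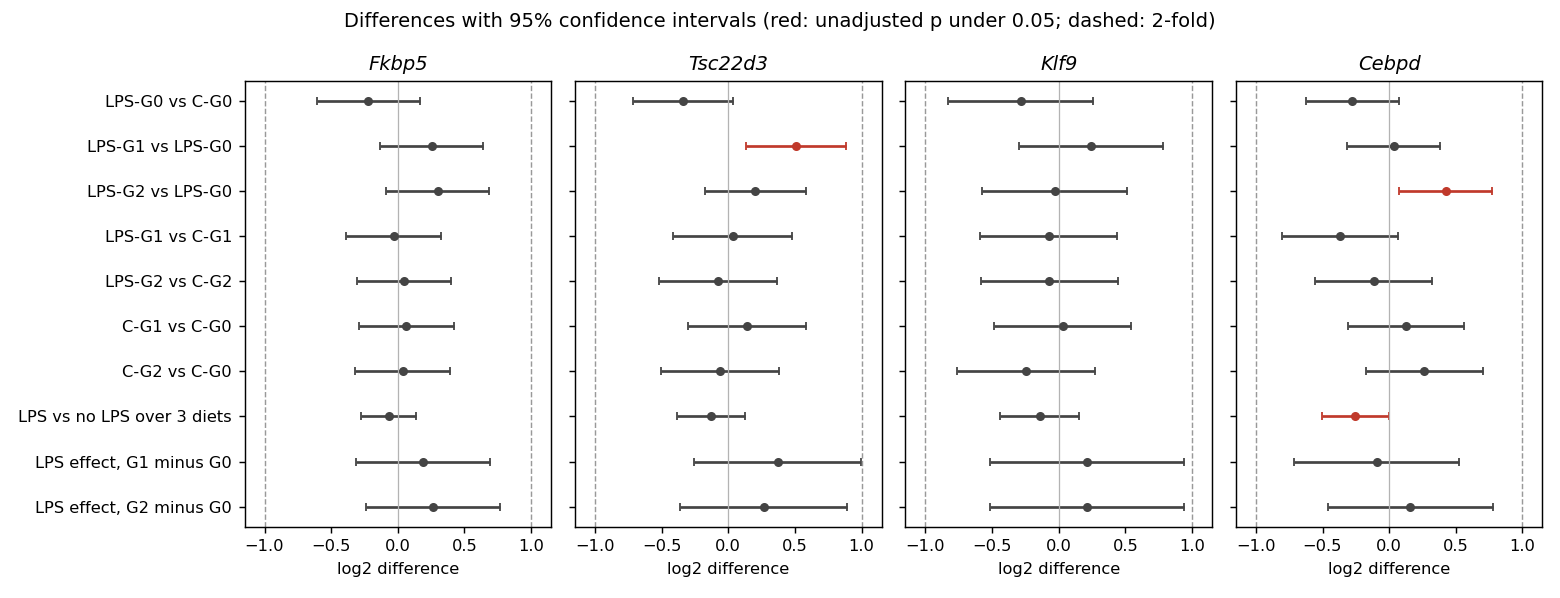
Log2 differences of the 4 measured members in the 10 comparisons, with 95% confidence intervals from limma (red: unadjusted p under 0.05; dashed lines: 2-fold). All 40 intervals lie inside the 2-fold lines, and 3 exclude 0, of which none passes after adjustment.

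On the G1 diet, LPS-G1 differed from C-G1 by at most 0.37 in size among the members. Cebpd differed by -0.37 (95% interval -0.81 to 0.067, adjusted p = 0.950), and Fkbp5, Tsc22d3 and Klf9 differed by -0.032, 0.032 and -0.074; 0 of 4 members passed, where 0.00934% of 10708 probes did. On the G2 diet the differences of LPS-G2 from C-G2 ran from -0.12 for Cebpd to 0.044 for Fkbp5, with 0 of 4 passing, where 0% of all probes did. At an unadjusted p under 0.05 the count was 0 of 4 in both, where 2.81% and 1.09% of probes passed, and the groups of all 4 overlapped, where 2.73% and 1.07% of probes did not. Pooled over the 3 diets with 12 arrays a side, Cebpd differed by -0.25 with LPS (SE 0.12, 95% interval -0.51 to -0.0017), with an unadjusted p of 0.0486, an adjusted p of 0.517 by limma and an exact permutation p of 0.0445. The difference of Cebpd was below 0 on 3 of 3 slides, from -0.42 to -0.11. All 5 neutrophil markers were also below 0 in this contrast, with a median of -0.21, while 5 of 5 NK cell and 6 of 6 erythroid markers were above 0, with medians of 0.33 and 0.27. The part of these markers in the contrast was not tested. The other members had pooled differences of -0.069 for Fkbp5, -0.13 for Tsc22d3 and -0.14 for Klf9. Of the 4 members, 1 passed at an unadjusted p under 0.05, where 9.61% of probes did, and 0 after adjustment, where 0.0187% did.

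Without LPS, the diets made differences of at most 0.26 in size among the members. In C-G1 against C-G0 the 4 differences ran from 0.031 for Klf9 to 0.14 for Tsc22d3, with 0 of 4 below an adjusted p of 0.05 (0.028% of probes) and 0 of 4 at an unadjusted one (27.9% of probes). Without the 2 arrays that stood apart, one on each side of this comparison, 3 of these 4 differences turned negative, to -0.37 for Klf9, -0.15 for Tsc22d3 and -0.14 for Fkbp5. In C-G2 against C-G0 they ran from -0.24 for Klf9 to 0.26 for Cebpd, again with 0 of 4 below an adjusted (0.028% of probes) or an unadjusted p of 0.05 (13.3% of probes). The groups of all 4 members overlapped in both, where 7.04% and 2.62% of probes did not. The erythroid markers had a median difference of -1.05 in C-G1 against C-G0, with 5 of 6 below 0 and 0 passing after adjustment, and the NK cell markers one of 0.62, with 5 of 5 above 0. The 2 arrays that stood apart gave the lowest NK cell list value in C-G0 (-1.68) and the lowest erythroid one in C-G1 (-1.39). The part of these markers in the members' values was not tested. Whether the LPS effect differed between diets was tested directly. The LPS effect on the G1 diet minus that on the control diet was 0.37 for Tsc22d3 (SE 0.30, adjusted p = 0.999), 0.21 for Klf9, 0.19 for Fkbp5 and -0.094 for Cebpd, and on the G2 diet minus the control diet it ran from 0.16 for Cebpd to 0.27 for Tsc22d3. In both, 0 of 4 members passed at either threshold, where 0% of probes passed after adjustment and 3.01% and 5.57% at an unadjusted p under 0.05.

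Over the 10 comparisons the 4 measured members gave 40 tests. Of these 0 passed limma's adjusted threshold and 3 had an unadjusted p under 0.05. The largest difference was 0.51, and all 40 confidence intervals lay within 2-fold, from -0.83 to 0.998. In the 28 comparisons of 2 groups, Tsc22d3 in LPS-G1 against LPS-G0 was the 1 case without overlap.

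The partners of the receptor and the wider sets of known glucocorticoid targets were read from lists of 24, 32 and 19 genes, all of which are on the array. Among receptor partners (heat shock proteins, immunophilins, coactivators and corepressors), 17 of 24 were tested in the study's comparisons and 0 passed after adjustment. The median difference was -0.034 in LPS-G0 against C-G0 with 11 of 17 below 0, 0.18 in LPS-G1 against LPS-G0 with 14 of 17 above 0, and 0.031 in LPS-G2 against LPS-G0 with 11 of 17 above 0, where the medians of all probes were 0.028, 0.058 and -0.016. In LPS-G1 against LPS-G0 the lowest p values belonged to Hspa4, a heat shock protein of the Hsp110 family (0.38, adjusted p = 0.126), Smarca4, an ATPase of chromatin remodelling complexes (0.41, adjusted p = 0.129), and Ppid, the immunophilin cyclophilin 40 (0.50, adjusted p = 0.142). In LPS-G0 against C-G0, Fkbp4, the immunophilin that carries the receptor towards the nucleus, was 0.41 higher with an adjusted p of 0.325.

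Of 32 other genes known to be induced by glucocorticoids, 19 were tested and 0 passed after adjustment in any comparison. Their medians were -0.066, 0.12 and 0.091 in the same 3 comparisons. Ddit4, an inhibitor of mTORC1 signaling, had the largest difference of this list in LPS-G1 against LPS-G0, 0.84 with an adjusted p of 0.0783, while Gadd45a, a stress-inducible gene, was at -0.69 with an adjusted p of 0.117. In LPS-G2 against LPS-G0, Anxa1, the anti-inflammatory protein annexin A1, was at 0.60 and Il1r2, the decoy receptor of interleukin 1, at 0.66, each with an adjusted p of 0.597. In LPS-G0 against C-G0, Il7r, the receptor of interleukin 7 on lymphocytes, was at -0.73 with an adjusted p of 0.246. Per1, a clock gene that glucocorticoids induce, was well above background in Cy3 on 6 arrays, and Zfp36, Cd163, Pdk4 and Fzd4 on 0.

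Of 19 inflammatory genes known to be repressed by glucocorticoids, 7 were tested and 0 passed after adjustment. In LPS-G0 against C-G0, 5 of 7 were above 0 with a median of 0.28, and the chemokine gene Ccl5 had the lowest p (0.57, adjusted p = 0.218). In LPS-G1 against LPS-G0 the 7 genes were split, 4 above and 3 below 0 with a median of 0.20. Nos2, the inducible nitric oxide synthase, was at -0.74 (adjusted p = 0.0611) and Tnf, which encodes tumor necrosis factor, at 0.69 (adjusted p = 0.123). In LPS-G2 against LPS-G0 the lowest p was that of Il1b, which encodes interleukin 1 beta (0.81, adjusted p = 0.597). Il6, Ptgs2, Cxcl1, Vcam1, Ifng, Il2 and Il12b were well above background in Cy3 on 0 of 24 arrays.

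**Figure D4:**
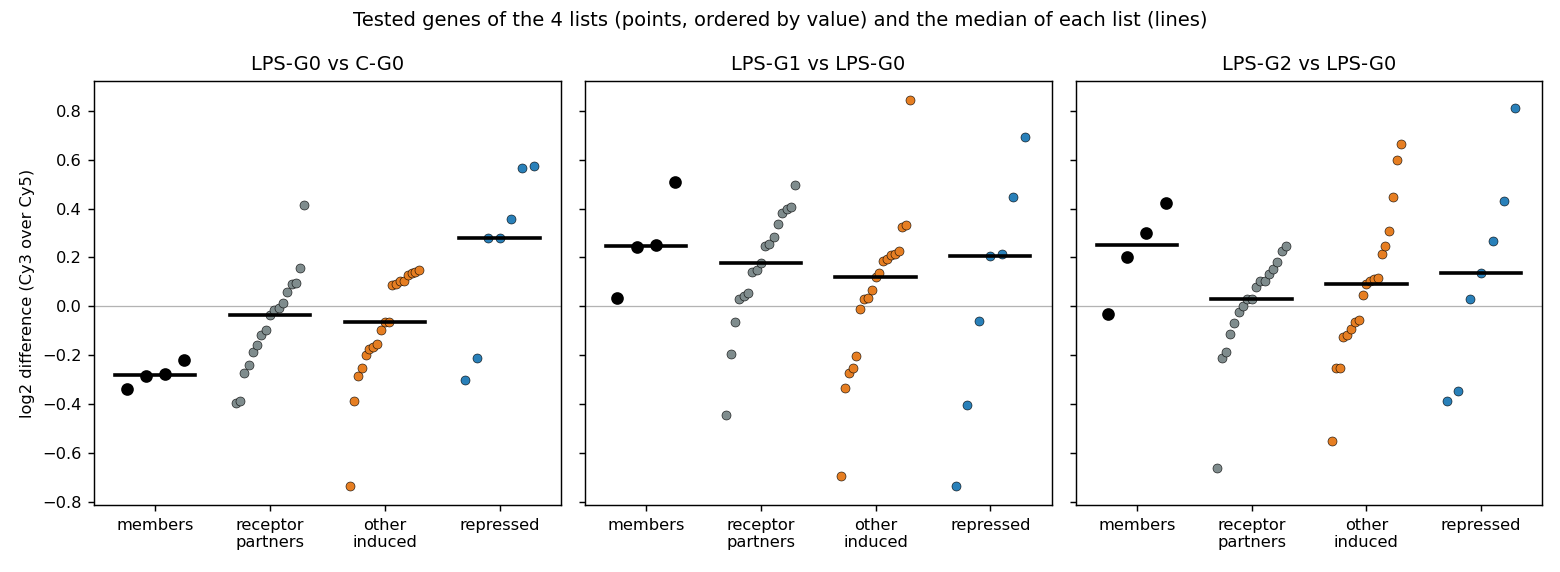
Log2 differences of the tested members (black), receptor partners (grey), other induced genes (orange) and repressed genes (blue) in the 3 comparisons of the study, with the median of each list as a line. The 4 members lie below 0 in LPS-G0 against C-G0, above 0 in LPS-G1 against LPS-G0, and on both sides in LPS-G2 against LPS-G0. The other lists include genes on both sides of 0 in each panel. No gene drawn passed the adjusted threshold.

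No pair of the 4 measured members had a correlation between rats of one group that passed the test. After subtraction of the group means, the 6 pairs had Pearson's r between -0.19 and 0.41 and Spearman's rho between -0.15 and 0.43 over the 24 arrays. The strongest pair was Tsc22d3 with Klf9 (r = 0.41, permutation p = 0.103, adjusted p = 0.377 over the 6 pairs; rho = 0.43, permutation p = 0.0762, adjusted p = 0.457), and its r was 0.34 with slide means removed and 0.33 without the 2 arrays farthest from the median of Tsc22d3. In the Cy3 signal alone, Tsc22d3 correlated with Fkbp5 at 0.72 and with Klf9 at 0.55 (adjusted permutation p = 0.00336 and 0.036), against 0.29 and 0.41 in the ratios.

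Against the 7 lists of cell markers, 28 relations were computed, and 5 had an adjusted permutation p under 0.05 by Pearson's r. Cebpd followed the neutrophil list (r = 0.70, adjusted p = 0.0441; rho = 0.60), and Klf9 the T cell list (r = 0.68, adjusted p = 0.0365; rho = 0.58). Tsc22d3 ran against the erythroid list (r = -0.65, adjusted p = 0.0441; rho = -0.61) and the platelet list (r = -0.61, adjusted p = 0.0441; rho = -0.47), and Klf9 against the erythroid list (r = -0.58, adjusted p = 0.0365; rho = -0.67). By Spearman's rho, with ranks centered again within groups for the permutations, 0 of the 28 passed, the lowest adjusted permutation p being 0.0591. On the 3 single slides, Cebpd and the neutrophil list gave r from 0.65 to 0.92, Klf9 and the T cell list from 0.65 to 0.81, and Tsc22d3 and the erythroid list from -0.66 to -0.53. Without the 2 arrays farthest from the median of the member, r was 0.48 for Cebpd with neutrophils, 0.46 for Klf9 with T cells, -0.64 for Tsc22d3 with erythroid cells, -0.63 for Tsc22d3 with platelets and -0.71 for Klf9 with erythroid cells, the last of which alone kept an adjusted p under 0.05. Without the 2 arrays that stood apart, r was 0.67, 0.54, -0.48, -0.36 and -0.50 for these relations and 0 of the 28 passed. Of the 28 relations, 0 passed in the Cy3 channel alone (lowest adjusted permutation p 0.286), 0 with normexp and loess (0.0759) and 2 with quantile normalization. With slide means removed 7 passed, the added ones being Fkbp5 with monocytes (r = 0.47) and Tsc22d3 with T cells (r = 0.53), each with an adjusted permutation p of 0.0426. These permutations stayed within groups but crossed slides. The shuffled values are thus not held to the slide means as the observed ones are, and these p-values are approximate.

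**Figure D5:**
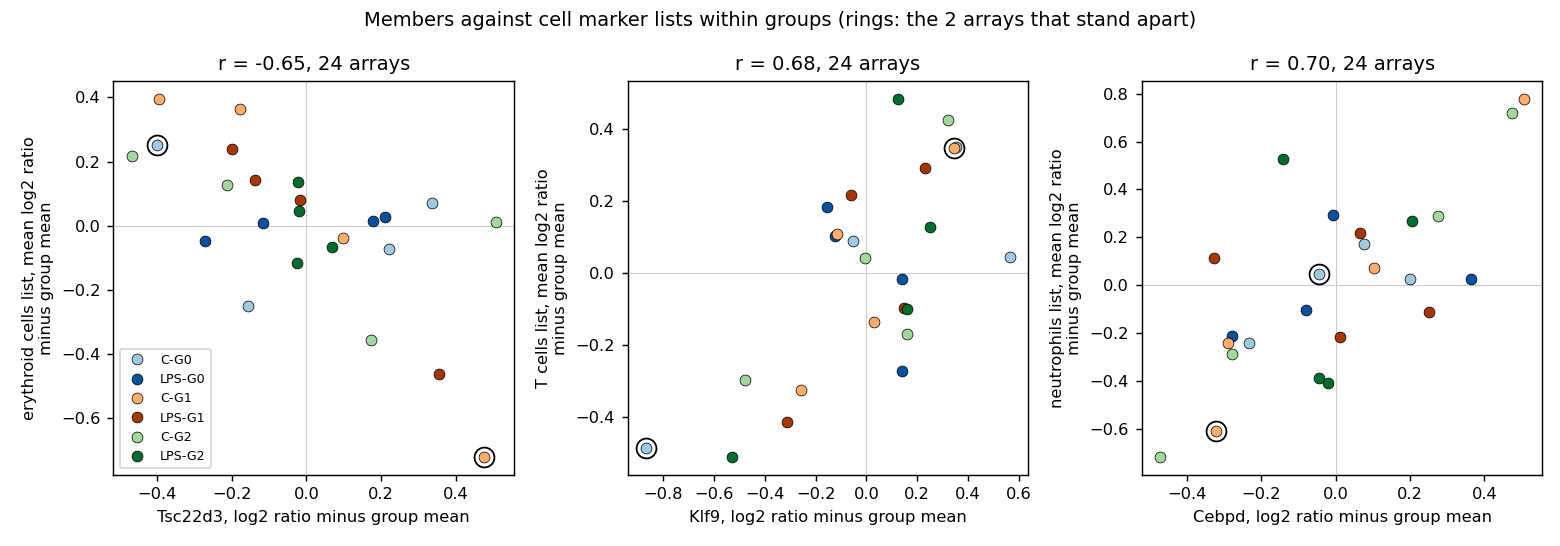
Mean log2 ratio of the erythroid, T cell and neutrophil marker lists (vertical) on each of the 24 arrays against the log2 ratio of Tsc22d3, Klf9 and Cebpd (horizontal), each minus its group mean (colors: groups; rings: C-G0 replicate 1 and C-G1 replicate 2). The points fall with r = -0.65 in the first panel and rise with r = 0.68 and 0.70 in the others.

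The genes whose log2 ratios were most like those of each member were sought among 4411 genes well above background on all 24 arrays, and are given as a description. For Cebpd they were Anxa1 (r = 0.85), Chi3l1 (r = 0.83) and Ptafr (r = 0.80), of which Anxa1 also belongs to the list of induced genes. For Tsc22d3 they were Hspa4 (r = 0.85), Chmp7 (r = 0.84) and Fbxo31 (r = 0.84), of which Hspa4 is a receptor partner. For Klf9 they were Igf2r (r = 0.83), Tcof1 (r = 0.83) and Dag1 (r = 0.82), and for Fkbp5 Dnase1l1 (r = 0.75), N4bp2l1 (r = 0.70) and Cog2 (r = 0.69). All arrays share the same reference, and an r above 0.5 was common for Tsc22d3 (25.3% of the genes) and Klf9 (22.8%) and rarer for Fkbp5 (6.19%) and Cebpd (2.18%).

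The receptor binds DNA at sites built from the half-site AGAACA and its reverse complement TGTTCT. In the RefSeq promoter windows (build GRCr8), 6 of the 8 members were listed with 11 windows. Neither strand of the half-site occurred in the 250 bases before the start in any of the 11, and it occurred in 17.5% of 33469 windows of all genes. The letters of this motif are thus absent from the 250 bases before the start in these windows, a stretch that does not reach introns or distant enhancers. With only 11 windows of 6 genes, the absence was not tested against the share of all genes.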

How the data were processed

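Peripheral blood RNA of single rats and a common reference were hybridized to 24 Agilent SurePrint G3 Rat arrays. The authors deposited processed intensities of both channels from Agilent Feature Extraction, background-subtracted and dye-balanced within arrays, with log10 ratios of Cy5 over Cy3. The submitters' processing notes give its version as 10.7.3.1, and the grid placement version in the file headers is 10.10.1.1. A deposited series table repeats the ratios (1511424 identical values). Signs were turned to Cy3 over Cy5 and values to log2. Deposited outlier flags removed spots, spots of a probe were averaged, and a probe was tested if every one of the 4 arrays of some fitted group showed it well above background in Cy3: 10313 for the study's 16 arrays, 10708 for all 24. limma 3.58.1 (R 4.3.3) gave moderated tests, two-sided, with Benjamini-Hochberg adjustment over all probes. The 3 comparisons of the study used the 16-array fit and the other 7 all 24 arrays. The threshold was an adjusted p under 0.05. Exact permutations covered the 70 arrangements of 4 against 4 arrays. Correlations used 100000 permutations within groups (numpy, Python). For Spearman's rho the permutation p was computed on ranks centered again within groups, while the rho printed uses the ranks without that step. The fit was tested on simulated data. Replicates are single rats, each with a single array. The p-values therefore measure the spread between arrays, in which rats and array handling are not separated, and the number of arrays limits precision. Both Nr3c1 probes are given; from the receptor and target lists, genes past the threshold or those with the smallest p values were named. The members, lists and rules were chosen with earlier results of these data known. The relations with marker lists and the exclusion of the 2 arrays that stood apart were added after the values were seen.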

Additional observations from a re-analysis of the deposited data

Results flagged for a closer look

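In 24 groups of 4 arrays (4 measured members in 6 groups), 2 values lay farther from the rest of their group than Dixon's test allows at the 95% level, which compares the gap with the group's range and which chance exceeds in about 1 of 20 groups. Both came from LPS-G2 replicate 3. Klf9 stood there at -0.43, with a gap of 0.840 of the group's range of 0.78. Tsc22d3 stood there at 0.0019, above 3 arrays at -0.088 to -0.093, with a gap of 0.947 of a range of 0.095, which is small against the SD within groups of 0.30.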

How the results depend on the processing

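In all alternatives, 0 members passed the adjusted threshold, except that the count was 1 (Tsc22d3) in LPS-G1 against LPS-G0 with array weights and without the 2 arrays that stood apart. Single arrays were left out only from the groups compared, which gave counts of 0 to 0. Of the 2 arrays that stood apart, only C-G0 replicate 1 was in the fit of LPS-G1 against LPS-G0. The count of 1 without them thus came from leaving out that array, which is in neither group compared. The pairs of members past the threshold rose from 0 to 2 in the Cy3 channel alone, while the member and marker relations went from 5 to 0 there, with normexp and loess, and without the 2 arrays that stood apart. Differences near 0 changed sign as follows. With normexp and loess, Klf9 was 0.049 in LPS-G2 vs. LPS-G0, 0.014 in LPS-G1 vs. C-G1, 4.85e-05 in LPS-G2 vs. C-G2 and -0.034 in C-G1 vs. C-G0. With the slide as a block, Cebpd was -0.000449 in LPS-G1 vs. LPS-G0, and Fkbp5 and Klf9 were -0.00560 and -0.030 in C-G1 vs. C-G0. With quantile normalization, Klf9 was 0.047 in LPS-G2 vs. LPS-G0 and Fkbp5 -0.022, -0.016 and -0.0067 in LPS-G2 vs. C-G2, C-G1 vs. C-G0 and C-G2 vs. C-G0. In Cy3 alone, Klf9 was 0.00604 (LPS-G2 vs. LPS-G0) and 0.0016 (LPS-G1 vs. C-G1), and Fkbp5 -0.0092 in LPS-G2 vs. C-G2. With array weights, Klf9 was 0.095 (LPS-G2 vs. LPS-G0), 0.036 (LPS-G1 vs. C-G1) and -0.33 (C-G1 vs. C-G0), Fkbp5 0.11, -0.073, -0.13 and -0.060 in LPS-G1 vs. C-G1, LPS-G2 vs. C-G2, C-G1 vs. C-G0 and C-G2 vs. C-G0, and Tsc22d3 -0.14 in C-G1 vs. C-G0. With both LPS-G0 arrays of conflicting labels left out, Klf9 was 0.11 in LPS-G2 vs. LPS-G0, and the LPS effect on G1 minus that on G0 was 0.048 for Cebpd. Without the 2 arrays that stood apart, Fkbp5 was 0.058, -0.14 and -0.076 in LPS-G1 vs. C-G1, C-G1 vs. C-G0 and C-G2 vs. C-G0, Klf9 0.041 and -0.37 in LPS-G1 vs. C-G1 and C-G1 vs. C-G0, and Tsc22d3 -0.15 in C-G1 vs. C-G0. The correlation of Fkbp5 with Klf9 was -0.050 with normexp, -0.045 with quantile normalization, -0.064 with slide means removed, -0.17 without the 2 farthest arrays and -0.37 without the 2 that stood apart, and that of Fkbp5 with Cebpd was 0.14 in Cy3 alone. The cause of these changes was not tested.

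Leaving out single arrays turned these further values, given as ranges: in C-G1 vs. C-G0, Fkbp5 -0.047 to 0.14, Klf9 -0.26 to 0.22, Tsc22d3 -0.020 to 0.27 and Cebpd -0.042 to 0.23; in C-G2 vs. C-G0, Fkbp5 -0.076 to 0.10 and Tsc22d3 -0.23 to 0.094; in LPS-G1 vs. LPS-G0, Cebpd -0.060 to 0.15; in LPS-G2 vs. LPS-G0, Klf9 -0.11 to 0.15; in LPS-G1 vs. C-G1, Tsc22d3 -0.099 to 0.19, Fkbp5 -0.11 to 0.058 and Klf9 -0.16 to 0.041; in LPS-G2 vs. C-G2, Tsc22d3 -0.23 to 0.095, Cebpd -0.27 to 0.041, Fkbp5 -0.082 to 0.16 and Klf9 -0.23 to 0.11; and for the LPS effect on G1 minus that on G0, Cebpd -0.20 to 0.075.

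The replicate block left 0 members past the threshold in all 10 comparisons (adjusted p of Tsc22d3 in LPS-G1 vs. LPS-G0 0.0928) and moved the probes called from 3 to 88 in C-G1 vs. C-G0 and from 3 to 18 in C-G2 vs. C-G0. The deviations of arrays that share a replicate number correlated at 0.11 on average, those of other arrays at -0.038, and the lowest single pair of arrays that share a number stood at -0.31, so the numbers were not used as pairs. Arrays of different groups on the same slide also correlated at 0.11, and those on different slides at -0.054. Slide means ran from -0.24 to 0.064 for Fkbp5, -0.12 to 0.26 for Tsc22d3, 0.15 to 0.41 for Klf9 and -0.14 to 0.22 for Cebpd. The main fit had no slide term. Probes called at 2-fold (102 for LPS-G1 vs. LPS-G0, 1 for LPS-G0 vs. C-G0) ranged from 0 to 232 and 0 to 147 over the alternatives (most with array weights; for LPS-G1 vs. LPS-G0, 0 without the filter on dim probes, in Cy3 alone, by Tukey's test and without the arrays of conflicting labels), and from 0 to 249 and 0 to 126 when single arrays were left out. In C-G1 vs. C-G0 and C-G2 vs. C-G0 leaving out single arrays gave 0 to 314 and 0 to 159. The mean over several probes of a gene was not run, since each tested member has 1 probe. Cy3 signals near background limit Nr3c1, Dusp1, Sgk1 and Zbtb16.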
